A study of Mus musculus with 6 samples.

Results

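The cytochrome P450 genes were examined in lung RNA of mice with an inducible EGFR lung cancer model on a high-fat or a regular diet. A gene was included when its official symbol has the form of a P450 family, subfamily and member, such as Cyp2b10, and when at least 1 probe set on the array belonged to it and to no other gene. Cyp2f2 and Cyp26b1 were not included. Of 18193 genes with a probe set of their own, 68 met these terms, and each was read on its brightest probe set, judged by the mean over the 6 arrays. The values are log2 expression values from GCRMA, a method that corrects each probe's background from its sequence, so 1 unit is a 2-fold step in signal. Only 9 of the 68 genes had a mean log2 value of 6 or more, as did 9084 of all 18193 genes, and the other 59 are described apart because small values near background carry little information on size.

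All 6 mice were males that carried Tg(CC10-rtTA/tet-O-EGFR-L858R), a mutant human EGFR switched on by doxycycline, on a C57BL/6 background. By the paper, the CC10 promoter drives the doxycycline-dependent activator in adult lung and its respiratory epithelium. The RNA came from whole lung. The LC-HFD group (HFD+Dox in the labels) ate a diet with 60% of energy from fat, and the LC-RD group (RD+Dox) ate a regular diet, with 3 mice and 1 array per mouse in each group. By the labels, doxycycline was given to both groups in the food (625 ppm) and in sucrose-sweetened water (2 mg/ml), whereas the paper names the food only. The labels' growth text for LC-RD repeats the high-fat wording. Neither group is a lung without the drug or the transgene. The mice were 6 to 8 weeks old by the methods and 6 weeks old by the study design, which sets 2 weeks of diet before 8 weeks of diet with doxycycline, whereas the labels give diet until 8 weeks and 7 weeks of doxycycline.

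P450 enzymes are heme proteins that insert 1 atom of oxygen into their substrate, drawing electrons from a reductase or, for some of them, from cytochrome b5. Members of the CYP1, CYP2 and CYP3 families act mainly on drugs, smoke components and other foreign compounds, the CYP4 family hydroxylates fatty acids and eicosanoids, and other families make or break down steroids, bile acids and vitamins. In lung, club cells are the classic site of P450 activity, and several CYP1, CYP2 and CYP3 genes are switched on by the ligand-activated receptors AhR, CAR and PXR.

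The 2 groups also differed as sets of arrays. Spiked hybridization controls, which do not come from the lung, had a mean log2 value of 11.50 ± 0.0254 (SD, n = 3) in LC-HFD against 10.02 ± 0.0168 in LC-RD. For 18S rRNA the values were 7.61 ± 0.0693 and 12.53 ± 0.0164 (exact permutation p = 0.1 for each, two-sided, the smallest that 3 against 3 arrays allow). The 3' minus 5' signal, a measure of transcript integrity averaged over 4 control genes, was 1.65 against 1.73 in LC-RD, and the groups did not overlap. Diet and array set cannot be told apart in any comparison here. Array medians lay between 4.785 and 4.8368.

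Among the 9 brighter P450 genes, 3 were lower in LC-HFD than in LC-RD, namely Cyp2b10, Cyp20a1 and Cyp39a1, with 0.656 to 0.7 of the LC-RD signal, and 0 were higher. Passing means an adjusted p under 0.05 in limma, a linear model with a moderated test for each probe set, with Benjamini-Hochberg adjustment over all 45037 probe sets. The background is high, because 35.5% of all genes with a mean log2 value of 6 or more passed, 23.4% being lower and 12.1% higher. In 6 of the 9 genes the groups did not overlap and LC-HFD was the lower group, against 64.3% of all genes of that brightness without overlap and 40.9% with LC-HFD lower. At an unadjusted p under 0.05 in limma, 7 of the 9 were lower and 0 were higher, where 50.6% of all brighter genes passed, 33.1% being lower and 17.5% higher. No P450 gene of the 68 passed with a change over 2-fold, as 1.68% of all genes and 1.55% of all brighter genes did. The 9 differences ranged from -0.61 to 0.04 with a median of -0.26, beside a median of -0.07 over all brighter genes. In whole lung, fewer cells of a type and less RNA per cell cannot be told apart.

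**Figure D1:**
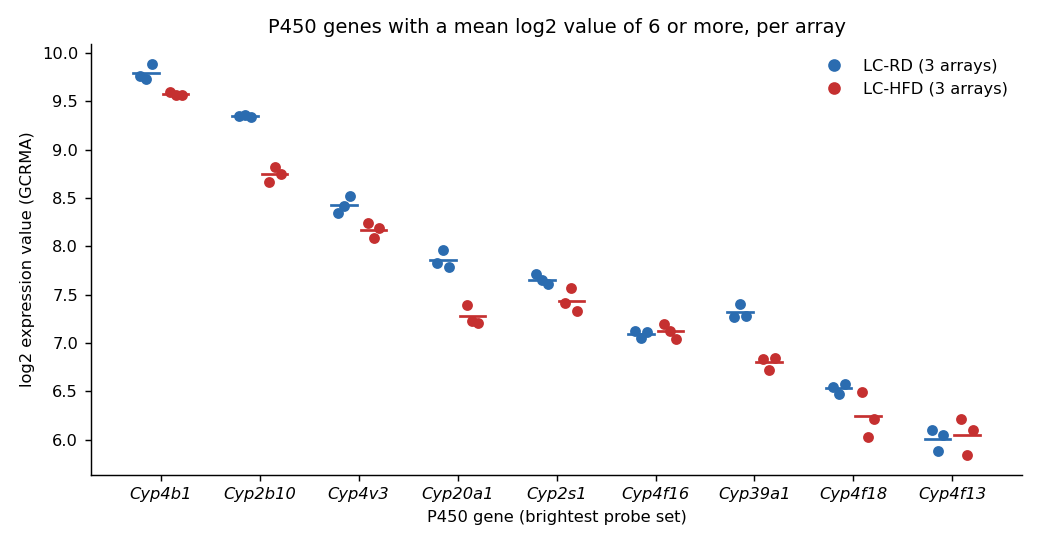
Log2 expression values (GCRMA) of the 9 P450 genes with a mean log2 value of 6 or more, on the brightest probe set of each. Each point is 1 array (blue, LC-RD; red, LC-HFD) and each short line a group mean; the groups are apart in 6 genes, widest in Cyp2b10, and overlap in Cyp4f16, Cyp4f18 and Cyp4f13.

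Cyp2b10 is the main drug-inducible member of the CYP2B subfamily in mice and a classic target of the receptor CAR. Its log2 values were 8.67, 8.82 and 8.75 in LC-HFD and 9.35, 9.36 and 9.34 in LC-RD. All 3 LC-HFD arrays lay below all 3 LC-RD arrays, with a gap of 0.53 between the groups and hardly any spread within LC-RD. The group means were 8.75 ± 0.0708 and 9.35 ± 0.0101 (SD, n = 3), a log2 difference of -0.61 (SE 0.0723, 95% confidence interval -0.78 to -0.44, limma adjusted p = 0.00192), so the signal in LC-HFD was 0.656 of that in LC-RD. The other 2 probe sets of the gene gave -0.68 (limma adjusted p = 0.00113) and -0.45 (0.0094). The brightest one and the one with -0.68 are of a kind that may match several related transcripts. Near-identical Cyp2b genes could share their signal. The probe set with -0.45 is not of that kind.

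Cyp2s1, a P450 of airway and skin epithelium, had log2 values of 7.41, 7.57 and 7.33 in LC-HFD and 7.71, 7.65 and 7.61 in LC-RD. The groups did not overlap, but only 0.04 separated the nearest arrays. The difference of -0.22 (SE 0.0875, 95% confidence interval -0.43 to -0.02) did not pass in limma (adjusted p = 0.104).

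Cyp20a1 is an orphan P450 whose substrate is not established. Its log2 values were 7.39, 7.23 and 7.21 in LC-HFD and 7.83, 7.96 and 7.79 in LC-RD. Every LC-HFD array lay at least 0.40 below every LC-RD array. The means were 7.28 ± 0.0981 and 7.86 ± 0.0872, a log2 difference of -0.58 (SE 0.0864, 95% confidence interval -0.78 to -0.38, limma adjusted p = 0.00428) and a ratio of 0.67. A dimmer probe set with a mean log2 value of 4.82 gave -0.40 with overlapping groups (limma adjusted p = 0.231), and the dimmest, at 2.33, gave -0.06 (0.597). After adjustment for the 3' minus 5' signal the Cyp20a1 difference was -0.52 and no longer passed (limma adjusted p = 0.0598). That signal did not overlap between the groups, so its part and that of diet cannot be told apart.

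Cyp39a1 hydroxylates oxysterols on the way to bile acids. Its log2 values were 6.83, 6.72 and 6.85 in LC-HFD and 7.27, 7.40 and 7.28 in LC-RD. The groups were separated by 0.42, which is wider than the spread within either. The means of 6.80 ± 0.069 and 7.32 ± 0.0724 gave a log2 difference of -0.52 (SE 0.0783, 95% confidence interval -0.70 to -0.33, limma adjusted p = 0.00451), a ratio of 0.7. After the same adjustment it was -0.41 (limma adjusted p = 0.0646).

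The remaining brighter genes were 5 members of the CYP4 family, and 0 of them passed. Cyp4b1, which is abundant in rodent lung and activates several lung toxicants, gave 9.60, 9.56 and 9.56 in LC-HFD and 9.76, 9.73 and 9.89 in LC-RD. Its groups did not overlap, and the difference was -0.22 (SE 0.0755, 95% confidence interval -0.40 to -0.04, limma adjusted p = 0.0724). Cyp4v3, the mouse counterpart of a fatty acid hydroxylase of the retina, gave 8.24, 8.09 and 8.19 in LC-HFD and 8.34, 8.42 and 8.52 in LC-RD. These groups were also apart, by 0.11, with a difference of -0.26 (limma adjusted p = 0.0596). The dimmer Cyp4v3 probe set, which had 7.11, 7.17 and 7.07 in LC-HFD and 7.59, 7.63 and 7.61 in LC-RD, did pass, with -0.50 (limma adjusted p = 0.00337).

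The CYP4F enzymes hydroxylate leukotrienes and long-chain fatty acids, and the groups overlapped in all 3 of the brighter ones. Cyp4f18, the leukotriene hydroxylase of mouse neutrophils, gave 6.49, 6.03 and 6.21 in LC-HFD and 6.55, 6.47 and 6.58 in LC-RD. LC-HFD replicate 1 lay within the LC-RD range and the other LC-HFD arrays below it, and the difference of -0.29 did not pass (limma adjusted p = 0.128). Without LC-HFD replicate 1 it was -0.41 and passed (limma adjusted p = 0.0248). Cyp4f16 gave 7.20, 7.12 and 7.04 in LC-HFD and 7.12, 7.05 and 7.11 in LC-RD, and Cyp4f13 gave 6.21, 5.84 and 6.10 against 6.10, 5.88 and 6.05. Both sets of values were interleaved. Their differences were 0.03 (95% confidence interval -0.15 to 0.20) and 0.04 (-0.23 to 0.31), with limma adjusted p-values of 0.824 and 0.818.

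**Figure D2:**
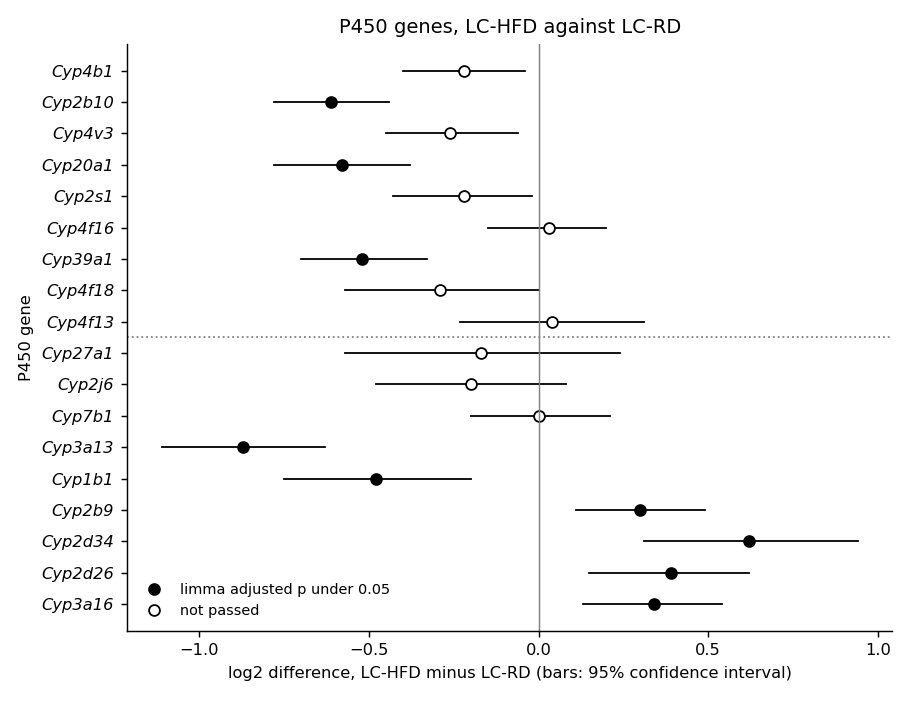
Log2 difference, LC-HFD minus LC-RD, with its 95% confidence interval from limma, for the 9 brighter P450 genes (above the dotted line) and, below it, the 3 genes just under a mean log2 value of 6 and the 6 dimmer genes that passed. Filled points passed an adjusted p of 0.05; Cyp2b10, Cyp20a1, Cyp39a1, Cyp3a13 and Cyp1b1 lie left of 0, and 4 dim genes lie right of it.

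Promoter windows of 2 lower genes and of 1 whose groups overlapped, picked among those that hold the letters searched, are shown because AhR, the dioxin receptor, binds the core letters GCGTG in the promoters of its target genes. The windows are the 250 bases before the RefSeq start in GRCm38.p6, written 5′ to 3′ on the gene's strand. Capitals mark each GCGTG or, for the opposite strand, CACGC. The windows lie at chr7:25897408-25897657 for Cyp2b10, chr1:60343050-60343299 for Cyp20a1 and chr17:32536307-32536556 for Cyp4f16, all on the plus strand.
Cyp2b10: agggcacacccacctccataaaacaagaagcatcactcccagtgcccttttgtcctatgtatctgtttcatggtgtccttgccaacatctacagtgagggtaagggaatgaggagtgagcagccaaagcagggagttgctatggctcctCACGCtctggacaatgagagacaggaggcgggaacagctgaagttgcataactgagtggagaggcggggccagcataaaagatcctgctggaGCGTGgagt
Cyp20a1: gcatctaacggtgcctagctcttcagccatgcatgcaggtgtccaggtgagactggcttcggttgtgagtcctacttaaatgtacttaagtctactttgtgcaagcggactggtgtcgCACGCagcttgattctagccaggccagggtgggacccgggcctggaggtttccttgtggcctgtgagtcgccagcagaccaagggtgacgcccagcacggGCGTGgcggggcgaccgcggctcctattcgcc
Cyp4f16: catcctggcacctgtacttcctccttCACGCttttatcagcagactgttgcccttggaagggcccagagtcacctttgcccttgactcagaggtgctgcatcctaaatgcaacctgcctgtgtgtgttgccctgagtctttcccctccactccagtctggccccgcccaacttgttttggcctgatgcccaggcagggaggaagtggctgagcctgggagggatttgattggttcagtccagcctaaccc
Cyp2b10 holds 2 such matches, which begin 101 and 9 bases before the start, and Cyp20a1 holds 2, at 132 and 32. Cyp4f16 holds 1, at 224. These letters occur in 28.2% of 32851 windows of the same length over all genes and in 13 of 56 windows (23.2%) that belong to 49 of the 68 P450 genes, so a match is common and describes letters only. Of the 9 brighter genes 8 had a window, and Cyp4b1, Cyp2s1, Cyp4f18 and Cyp4f13 held no match while Cyp4v3 held 1. CpG pairs numbered 15 in the Cyp20a1 window and 4 in that of Cyp2b10, with a median of 2 in P450 windows and 6 in all windows.

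The mean log2 value of 6 fell between Cyp4f13, at 6.031, and Cyp27a1, at 5.996. Cyp27a1, the mitochondrial sterol hydroxylase of bile acid synthesis, gave 5.64, 6.22 and 5.87 in LC-HFD and 5.91, 6.34 and 5.99 in LC-RD. Its groups overlapped, with a difference of -0.17 (limma adjusted p = 0.5). Cyp7b1, which hydroxylates oxysterols, had nearly equal group means, with a difference of 0.00 (95% confidence interval -0.20 to 0.21, limma adjusted p = 0.986). Of its dimmer probe sets 1 gave -0.12, and the other, at a mean log2 value of 2.10, was higher by 0.34 (limma adjusted p = 0.0401).

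Cyp2j6 belongs to the arachidonic acid epoxygenases and had probe sets that differed in outcome. The brighter one gave 5.39, 5.59 and 5.70 in LC-HFD and 5.57, 5.80 and 5.90 in LC-RD, with overlap and a difference of -0.20 (limma adjusted p = 0.258). The dimmer one gave 4.35, 4.05 and 4.37 in LC-HFD and 5.14, 5.16 and 5.10 in LC-RD. There the groups were far apart and the difference was -0.87 (limma adjusted p = 0.00179). The paper lists this dimmer probe set, under the symbol CYP2J2, among its genes lower by more than 2-fold. In the values used here the change was under 2-fold. The paper's list of lower genes also holds the P450 gene CYP51A1, which is not among the genes counted here. Taking the mean of both probe sets, Cyp2j6 was lower, with -0.53 (limma adjusted p = 0.00337).

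Of the 59 dim P450 genes, 6 passed in limma, 4 higher and 2 lower, and 53 did not. Among all genes under a mean log2 value of 6, 19.1% passed, 10.0% being higher and 9.09% lower. The median difference of the 59 was 0.12, beside 0.11 over all 9109 genes of that brightness, and 41 of 59 differences were above 0. In 13 of the 59 the groups did not overlap, 3 with LC-HFD lower, against 33.9% and 12.7% of all dim genes. The sign went with signal level in the P450 genes as it did in all genes. The median difference was 0.20 for the 30 P450 genes with a mean log2 value under 3, where all genes had 0.14, and -0.16 for the 9 P450 genes from 5 to 6, where all genes had -0.06. The count of 6 depended on single arrays, and was 2, 1 or 3 without LC-RD replicate 1, 2 or 3.

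**Figure D3:**
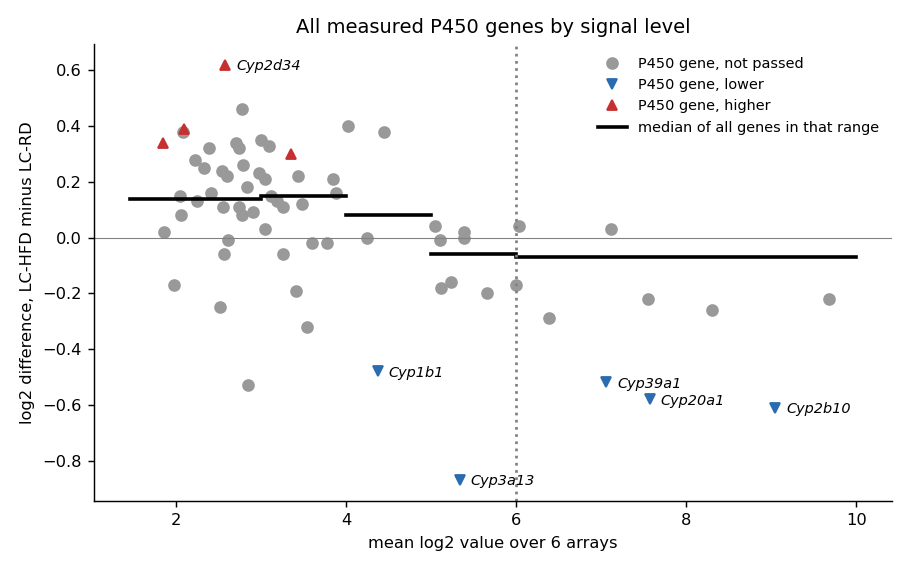
Mean log2 value over the 6 arrays (horizontal) against log2 difference, LC-HFD minus LC-RD (vertical), for all 68 P450 genes. Blue triangles are lower and red triangles higher at a limma adjusted p under 0.05, black bars are medians of all genes in each range of signal, and the dotted line is the mean log2 value of 6; most P450 genes lie under 4, and the higher ones all lie there.

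The 6 dim genes that passed are named here after their values were seen, and all are counted among the enzymes of foreign compounds. Cyp3a13, a CYP3A enzyme also found outside the liver, gave 4.78, 4.84 and 5.08 in LC-HFD and 5.70, 5.85 and 5.76 in LC-RD. The groups were 0.62 apart. The means were 4.90 ± 0.161 and 5.77 ± 0.0772, and the difference of -0.87 (SE 0.101, 95% confidence interval -1.11 to -0.63, limma adjusted p = 0.00174, ratio 0.547) was the lowest of the 68. Cyp1b1, an AhR target that activates polycyclic hydrocarbons, gave 3.93, 4.14 and 4.33 in LC-HFD and 4.63, 4.69 and 4.50 in LC-RD. These groups were apart as well, with a difference of -0.48 (limma adjusted p = 0.0244), whereas its dimmer probe sets gave -0.11 and 0.01. The Cyp1b1 call held in 8 of 15 other settings, and was lost without LC-HFD replicate 2 (limma adjusted p = 0.0545), LC-RD replicate 1 (0.0836) or LC-RD replicate 2 (0.0919). The 4 higher genes were Cyp2d34 (2.92, 2.71 and 3.04 in LC-HFD, 2.50, 2.08 and 2.22 in LC-RD, difference 0.62, limma adjusted p = 0.0156), Cyp2d26 (0.39, 0.0297), Cyp3a16 (0.34, 0.0306) and Cyp2b9 (0.30, 0.0331). All 4 had group means of 3.50 or less, near the array's background, and Cyp2d26, Cyp3a16 and Cyp2b9 did not pass under most of the other settings tried.

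By role, 25 of the 68 genes were xenobiotic enzymes, of which 4 were higher and 3 lower with a median difference of 0.08. The 7 of 25 that passed are a share near the 27.3% of all 18193 genes that passed. That group also holds Cyp1a1, the classic AhR target, which gave 3.45, 2.82 and 3.40 in LC-HFD and 3.24, 3.32 and 3.30 in LC-RD. The Cyp1a1 arrays overlapped (difference -0.06, limma adjusted p = 0.814). Cyp2e1, the ethanol-inducible P450, gave a difference of 0.02 (95% confidence interval -0.41 to 0.46, limma adjusted p = 0.941). Both were chosen after their values were seen.

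Of the remaining genes Cyp20a1 and Cyp39a1 passed. None of the 16 epoxygenases of the 2C and 2J subfamilies passed in limma, with differences from -0.25 to 0.40 and a median of 0.19, and 15 of them had group means under 5. The 11 fatty acid and eicosanoid hydroxylases ranged from -0.29 to 0.22 with 0 passing. The 5 steroid hormone genes, which are typical of adrenal and gonad, ranged from -0.01 to 0.35 with 0 passing. Of the 6 sterol and bile acid genes Cyp39a1 alone passed, and the 4 vitamin D and retinoic acid genes ranged from -0.53 to 0.46 with 0 passing. At an unadjusted p under 0.05 in limma, 15 of the 59 dim genes passed, 11 higher and 4 lower. Of all dim genes 33.7% did, 20.9% being higher and 12.8% lower.

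**Figure D4:**
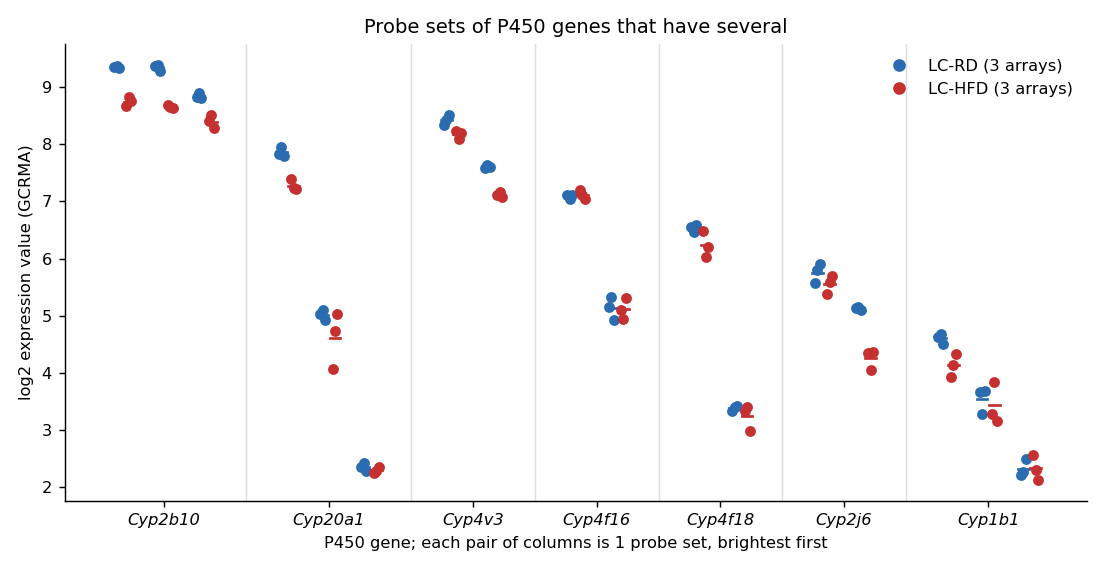
Log2 expression values (GCRMA) on every probe set of 7 P450 genes that have several. Each pair of columns is 1 probe set, brightest first, each point is 1 array (blue, LC-RD; red, LC-HFD) and short lines are group means; LC-HFD is below LC-RD on all 3 Cyp2b10 probe sets and on both Cyp4v3 probe sets, while the Cyp2j6 and Cyp1b1 probe sets differ in their gaps.

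Several probe sets were available for 18 of the 68 genes, 5 of them among the brighter ones. Cyp2b10 was the only one of the 18 with every probe set lower in limma. The Cyp4f16 probe sets gave 0.03 and -0.01, and the Cyp4f18 probe sets gave -0.29 and -0.15, with none passing. A probe set reads 1 stretch of a transcript, and whether the disagreements come from isoforms or from dim signal was not tested.

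The genes that work with P450 enzymes were read from 6 lists, of which 57 of 64 listed genes had a probe set of their own. In limma 13 of these were lower, 5 higher and 39 neither, with a median difference of -0.06. Of all 18193 genes 27.3% passed, 11.1% being higher and 16.2% lower. The counts rested partly on single arrays. Leaving out LC-RD replicate 1 or 2 gave 1 higher and 8 lower, without LC-RD replicate 3 there were 2 higher and 10 lower, and without LC-HFD replicate 3 there were 3 higher and 9 lower. After adjustment for the 3' minus 5' signal, which cannot be told apart from diet here, 0 were higher and 1 was lower.

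The list of electron donors, which also holds heme-binding partners of P450 enzymes, had 2 lower genes of 6. Cyb5a, the microsomal cytochrome b5, gave 10.67, 10.59 and 10.62 in LC-HFD and 11.06, 11.04 and 11.08 in LC-RD, with clear separation and a difference of -0.44 (SE 0.0685, limma adjusted p = 0.00503). Pgrmc1, a heme-binding partner of P450 enzymes, was lower, with -0.32 (limma adjusted p = 0.0153). Por, the reductase of all microsomal P450 enzymes, was not analysed here. In heme synthesis and breakdown 1 of 12 genes was higher and 3 were lower. Cpox, which makes protoporphyrinogen, was higher by 0.78 (limma adjusted p = 0.00573) on its brightest probe set. Another of its probe sets passed as lower, and the range was -0.59 to 0.78. Blvrb and Blvra, the biliverdin reductases, were lower, with -0.32 and -0.26, as was Fech, the last enzyme of heme synthesis, with -0.27 (limma adjusted p = 0.0228, 0.0348 and 0.0435), with Fech probe sets ranging from -0.82 to 0.21.

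Among 13 receptors and regulators of P450 genes, 2 were higher and 1 was lower. Ahr gave 8.89, 8.89 and 8.83 in LC-HFD and 9.20, 9.22 and 9.26 in LC-RD. All LC-HFD arrays were below all LC-RD arrays, with a difference of -0.36 (SE 0.0686, limma adjusted p = 0.0106), although a dimmer probe set gave 0.22. Hnf4a, a liver and gut regulator, was higher by 0.57 (limma adjusted p = 0.0234) at group means of 5.44 and 4.87. Nfe2l2, the regulator of the oxidative stress response, was higher by 0.27 (limma adjusted p = 0.034) on its brightest probe set. Its other probe set passed as lower, with -1.50, and the paper lists the gene as lower by more than 2-fold.

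Of 4 AhR targets outside the P450 family 3 were lower, where 16.2% of all 18193 genes were. The 1 that did not pass had a mean log2 value of 2.18, near background. Nqo1, a quinone reductase, gave 4.31, 3.86 and 3.25 in LC-HFD and 5.25, 5.45 and 5.15 in LC-RD. LC-HFD was lower on every array and more spread, and the difference was -1.47 (SE 0.246, limma adjusted p = 0.00636). Aldh3a1, an aldehyde dehydrogenase, was lower, with -0.57 (limma adjusted p = 0.00839), as was Tiparp, a feedback inhibitor of AhR, with -0.50 (0.00539), with 8.04 ± 0.105 in LC-HFD and 8.54 ± 0.00735 in LC-RD. All 3 Tiparp probe sets were lower, from -0.59 to -0.25. Nqo1 and Aldh3a1 are also known targets of other regulators.

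Of 14 eicosanoid genes 2 were higher and 3 were lower. Alox12, the platelet-type lipoxygenase, gave 3.88, 4.35 and 4.07 in LC-HFD and 5.11, 5.14 and 5.18 in LC-RD, a difference of -1.04 with the groups well apart (limma adjusted p = 0.0018). Pla2g4a, which releases arachidonic acid, and Alox5ap, the partner of the leukotriene-forming lipoxygenase, were lower, with -0.41 and -0.37 (limma adjusted p = 0.0456 and 0.0101). Alox15, another lipoxygenase, was higher by 0.61 (limma adjusted p = 0.0319). Of 9 oxysterol and steroid genes only Sult2b1, a cholesterol sulfotransferase, passed, with -0.51 (limma adjusted p = 0.00636).

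**Figure D5:**
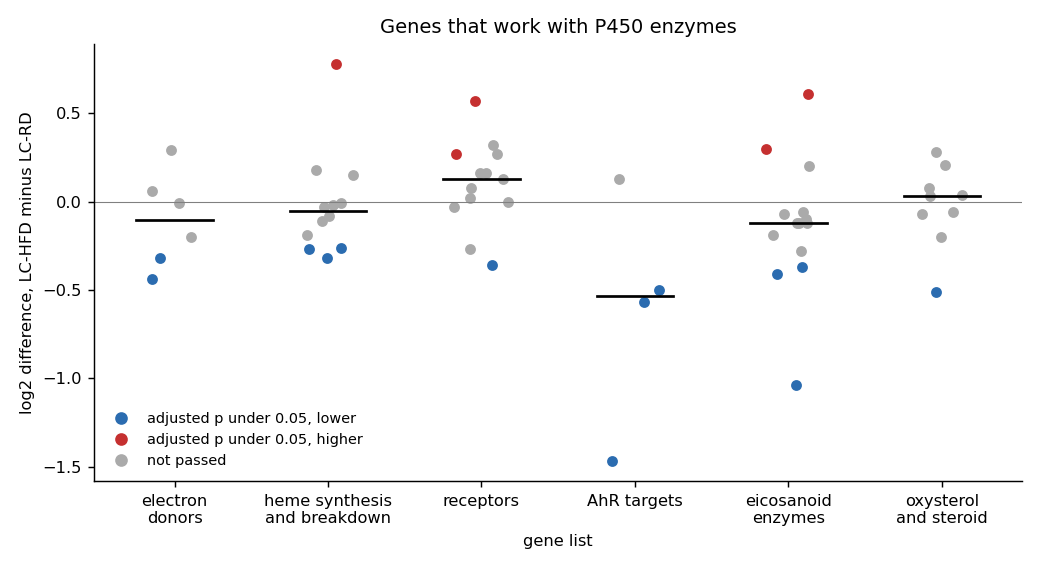
Log2 difference, LC-HFD minus LC-RD, of the genes in 6 lists of P450 partners, regulators and neighbouring enzymes. Each point is 1 gene (blue for lower, red for higher, grey for not passed in limma) and each black line a list median. In the lists 3 of 4 AhR targets and 3 of 14 eicosanoid genes are lower, Nqo1 by the most, where 16.2% of all 18193 genes are lower.

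Cell type markers were read beside these genes because the RNA came from whole lung. Over 13 marker lists 14 of 66 measured genes were higher and 13 were lower, with list medians from -0.50 in cardiac muscle to 0.46 in club cells. For comparison, 11.1% of all 18193 genes were higher and 16.2% lower in limma. The mean of the 5 club markers was 8.85 to 8.96 in LC-HFD and 8.66 to 8.75 in LC-RD, with 3 higher and 1 lower. Scgb3a1, Bpifa1 and Muc5b were higher, by 0.75, 0.50 and 0.46 (limma adjusted p = 0.000917, 0.0226 and 0.00964). Scgb3a2, the lower one, had a difference of -0.53 (limma adjusted p = 0.00229), and Scgb1a1, the defining club marker, had -0.11 (0.261). The alveolar type II mean was 12.69 to 12.75 against 12.62 to 12.68, so the lung identity of the RNA was evident in both groups. The 7 hepatocyte markers, whose cell type expresses many of the dim P450 genes, had means of 3.91 to 4.08 in LC-HFD and 3.71 to 3.81 in LC-RD, with 2 of 7 higher. Albumin was among these at 6.12 and 5.41. The cardiac muscle means were 4.30 to 4.32 in LC-HFD and 4.73 to 4.95 in LC-RD, with 4 of 6 lower. The part of these markers in the P450 differences was not tested.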

How the data were processed

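The authors hybridized whole-lung RNA from 3 mice per group to Affymetrix Mouse Genome arrays, 1 per mouse. The authors deposited log2 values, 1 per probe set and array, made with GCRMA per the submitters' processing notes. The sources used here do not give its version or settings. The methods name Partek software. No value was normalized again.

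Of 45101 probe sets, 64 controls were kept apart and 45037 tested. The platform's annotation gave 34945 of them 1 gene, 932 several and 9160 none, and symbols were updated through RefSeq's table. Groups came from the sample titles. LC-HFD and LC-RD were compared with limma 3.58.1 (R 4.3.3, default settings, two-sided, no covariate, all 6 arrays) with Benjamini-Hochberg adjustment over all tested probe sets. Controls were compared with an exact permutation test. The number of arrays limits the precision.

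P450 genes with a mean log2 value of 6 or more on their brightest probe set were named, with the 3 just below and any dimmer one that passed with over 2-fold change, plus, of each pathway list, up to 4 genes that passed, by size of change, and Por. Marker genes were named after their values were seen. Members and lists were chosen with earlier results of these data known. Cell type lists covered club, alveolar type II and I, ciliated, endothelial, fibroblast, smooth muscle, macrophage, B, T, cardiac muscle, hepatocyte and adipocyte markers. The fit was tested on simulated data of the same size. It called 95 of 100 probe sets that carried a shift of 1.5 on the log2 scale, 27 of 100 that carried 0.5, and 9 of 44837 that carried none. The share carrying a shift was far below the 27.3% of all genes that passed in the data. These counts therefore do not give the power reached there. The other settings tried are given in the closing section. Figures were drawn with matplotlib 3.10.9.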

Additional observations from a re-analysis of the deposited data

How the results depend on the processing

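The number of brighter P450 genes that were lower was 3 with the methods' t-test, array weights, quantile normalization, median centering and the replicate block, 3 to 4 with 1 array left out, and 4 or 3 with the boundary at a mean log2 value of 5 or 7. It was 6 with an intensity trend and robust variance, 5 and 7 with minimum mean log2 values of 4 and 6, 5 with the mean of all probe sets of a gene and 1 when the 3' minus 5' signal was a covariate. None was higher, and none passed with over 2-fold change, under any setting tried. Cyp2b10 passed under all 16 settings, from -0.67 to -0.57. The methods' t-test counted 6 of the 9 brighter genes at an unadjusted p under 0.05, and 55.1% of all brighter genes. Under the minimum values fewer probe sets enter both the fit and the adjustment. The cause of these shifts was not tested.

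The number of dim P450 genes that passed was 6, and became 1 with the methods' t-test, 2 with the covariate and 1 to 9 with 1 array left out. A minimum of 4 kept 13 of the 59, of which 2 passed, Cyp3a13 and Cyp1b1, so it lost no call among the genes it kept. Genes of the lists were 5 higher and 13 lower. They were 8 higher with quantile normalization or a minimum of 4, 0 higher and 1 lower with the covariate, and 1 to 6 higher and 8 to 11 lower with 1 array left out. The settings for the dim genes and the lists were chosen after seeing the data.

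With the replicate number as a block, 3 dim genes passed, and the lists had 2 higher and 8 lower genes. Deviations of same-numbered arrays did not go together (correlations -0.043, -0.093 and -0.03). No sign of pairing by number was seen, but 3 arrays per group cannot exclude it.

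Over 275 combinations of 1 of 18 named P450 genes with 1 other setting, 211 kept direction and call, 41 lost a call, 13 gained one and 10 changed sign. The sign changes were in Cyp4f16 (-0.01 to 0.06) and Cyp4f13 (-0.04 to 0.14) with 1 array left out, in Cyp27a1 with the mean of all probe sets (0.08), and in Cyp7b1 with array weights (-0.02), the covariate (-0.04) and 1 array left out (-0.05 to 0.06).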

Other observations

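Some probe sets match more than 1 P450 gene and were kept out of the counts. The probe set shared by Cyp2a5 and Cyp2a4, which hydroxylate coumarin and testosterone, gave 4.32, 4.72 and 5.01 in LC-HFD and 5.27, 5.05 and 5.21 in LC-RD. The groups did not overlap, the LC-HFD arrays were the more spread, and the difference of -0.50 (SE 0.169) did not pass in limma (adjusted p = 0.0714). The other 3 such probe sets, shared by pairs of Cyp4f, Cyp4a and Cyp3a genes, gave 0.01, 0.18 and -0.07 (limma adjusted p = 0.919, 0.489 and 0.69). No group had 4 or more arrays, so no array was tested as standing apart within its group.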
